A study of Mus musculus with 6 samples.

Results

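Ero1a, Ero1b and 8 further genes of disulfide bond formation form the group described here. Most of their products act in the endoplasmic reticulum (ER). All were measured in Hepa1-6 cells, a mouse hepatoma line. They were chosen by symbol, as Ero1a, Ero1b, P4hb, Pdia3, Pdia4, Pdia6, Prdx4, Gpx8, Qsox1 and Erp44, and all 10 were found among the 16217 genes of the deposited table. Hepa1-6 cells had been transduced with lentivirus in the presence of polybrene and selected with puromycin, so both groups carry an integrated vector. In 3 libraries the vector expressed a hairpin against Ero1a (shERO1A, libraries KD1, KD2 and KD3) and in 3 libraries the control hairpin shNC (libraries NC1, NC2 and NC3). The hairpin sequences, how many were used and whether a line was 1 clone are not stated, so loss of Ero1a cannot be told apart from anything else that sets the transduced lines apart. Nothing says that the libraries of a group came from separate cultures, so p-values measure the spread between libraries, which may be technical.

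Secreted and membrane proteins receive their disulfide bonds in the ER. Protein disulfide isomerases place a bond in a client and are left reduced; ERO1 oxidases reoxidize them, pass the electrons to oxygen and release hydrogen peroxide, which ER peroxidases remove while oxidizing further isomerases. Hepatocytes secrete large amounts of disulfide-bonded plasma proteins, and ERO1A is known as a gene induced by low oxygen and by ER stress.

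The transcripts were compared for identical stretches. Only a read that lies wholly inside such a stretch could be assigned to either gene, and the read length is not given here. In the longest protein-coding transcripts of GENCODE M21, Ero1a (4418 bases, chromosome 14) and Ero1b (4239 bases, chromosome 13) had no run of 21 bases in common. Their longest shared run was 18 bases, starting at base 603 of both coding sequences. Of the 45 pairs among the 10 genes, 1 shared a run of 21 bases, P4hb with Pdia4, whose longest shared run of 28 bases lay inside both coding sequences. Pdia4 and Pdia6 shared 20 bases. These runs are shown because the ERO1 pair and the isomerases are the genes whose values are compared with each other.
Ero1a and Ero1b: catctatgaagaaaactg
P4hb and Pdia4: tggtggagttctatgccccgtggtgtgg
Pdia4 and Pdia6: ccgtggtgtggacactgcaa

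The stretches of 250 bases before the RefSeq transcription starts are shown for both ERO1 genes, and for the 2 isomerase genes with the largest positive differences below (RefSeq, build GRCm38.p6, which is not the mm39 build of the submitters' notes). Capitals mark the ER stress response element (CCAAT, 9 bases of any kind, CCACG) and the core of the hypoxia response element, ACGTG or GCGTG, searched on both strands; where marks meet they run together.
Ero1a, chr14:45318573-45318822, minus strand: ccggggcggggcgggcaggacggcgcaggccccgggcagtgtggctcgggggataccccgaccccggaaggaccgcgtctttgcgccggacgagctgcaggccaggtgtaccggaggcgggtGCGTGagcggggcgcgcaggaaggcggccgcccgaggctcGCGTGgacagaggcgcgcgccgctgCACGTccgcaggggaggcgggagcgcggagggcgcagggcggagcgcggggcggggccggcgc
Ero1b, chr13:12565633-12565882, plus strand: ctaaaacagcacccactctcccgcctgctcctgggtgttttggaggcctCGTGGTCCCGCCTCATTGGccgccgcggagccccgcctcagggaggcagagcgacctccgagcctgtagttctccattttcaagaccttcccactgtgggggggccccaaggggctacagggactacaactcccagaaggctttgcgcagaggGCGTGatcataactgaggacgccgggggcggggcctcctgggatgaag
Pdia4, chr6:47813513-47813762, minus strand: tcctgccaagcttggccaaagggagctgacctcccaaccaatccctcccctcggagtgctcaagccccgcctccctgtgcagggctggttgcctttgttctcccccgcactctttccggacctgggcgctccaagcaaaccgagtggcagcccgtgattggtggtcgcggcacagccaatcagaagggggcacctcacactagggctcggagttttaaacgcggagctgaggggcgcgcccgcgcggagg
Pdia6, chr12:17266339-17266588, plus strand: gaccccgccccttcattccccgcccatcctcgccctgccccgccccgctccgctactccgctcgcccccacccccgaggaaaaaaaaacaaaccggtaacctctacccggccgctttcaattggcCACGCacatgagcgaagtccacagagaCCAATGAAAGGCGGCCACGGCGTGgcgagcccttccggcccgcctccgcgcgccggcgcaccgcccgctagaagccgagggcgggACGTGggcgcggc
The full ER stress response element was found in the windows of Ero1b, on the reverse strand 201 bases before the start, and Pdia6, 98 bases before it, and in no other window of the 10 genes. It was found in 0.113% of 32851 windows of that length. The hypoxia core is common, with a match in 38.6% of all windows and in a window of 9 of the 10 genes, not of Pdia4. Erp44 had 2 windows, from 2 RefSeq starts, 1 of them without a match. The Ero1a window held 3 such cores, and 80.8% of its bases were G or C, against 64.4% for Ero1b. A match is a string of letters and was not tested as a binding site.

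Between 38290505 and 39646829 reads per library lay behind the values. They are taken as FPKM, reads scaled to gene length and to the library's reads, and can be compared between genes. Each of the 10 genes passed the minimum mean of 1 FPKM, as did 10296 genes in all; at least 318 reads lay behind each value of the 10. Changes were tested with limma on log2(FPKM + 1), with p-values adjusted over all tested genes and called under 0.05. Of those genes 17.7% were called, 9.48% as higher and 8.23% as lower in shERO1A. KD3 stood apart from KD1 and KD2. It had the highest value of the 6 libraries in 31.4% of all tested genes, in 42.6% of those averaging 10 FPKM or more and in 6 of the 10 described here. The hepatocyte transcription factor gene Hnf4a stood at a mean of 41.1 FPKM in shNC and 33.2 FPKM in shERO1A. The summed level of the 9 listed hepatocyte markers with a row was 158 to 165 FPKM in shNC and 133 to 139 FPKM in shERO1A, while Alb, Ttr, Apoa1, Fgb and Serpina1a are not among the genes analysed here. Of the other cell types' listed markers with a row, Cdh5 of endothelial cells stood at 9.80 to 10.6 FPKM in shNC and 17.7 to 18.8 FPKM in shERO1A, and Pecam1, Kdr and Vwf of the same list were at most 0.151 FPKM in any library. Cd14, on the immune list, stood at 28.3 to 31.9 FPKM in shNC and 21.4 to 23.2 FPKM in shERO1A (limma adjusted p = 0.00315). It made up most of the summed level of that list's 5 markers with a row, 30.8 to 34.4 FPKM in shNC and 24.5 to 26.2 FPKM in shERO1A. Cd68 reached 3.05 FPKM and Ptprc at most 0.0663 FPKM. The 6 fibroblast markers with a row summed to 0.892 to 1.69 FPKM in shNC and lay within that range in shERO1A. The part of these differences in the values below was not tested.

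In the knockdown, transcripts of both ERO1 oxidases and of the sulfhydryl oxidase Qsox1 fell, the isomerase gene Pdia4 rose, and the other 6 genes did not pass the test. These 4 calls among 10 genes stand beside 17.7% of all tested genes, and Ero1a was itself the target. The median log2 change of the 10 was 0.03, and that of all tested genes 0.01.

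**Figure D1:**
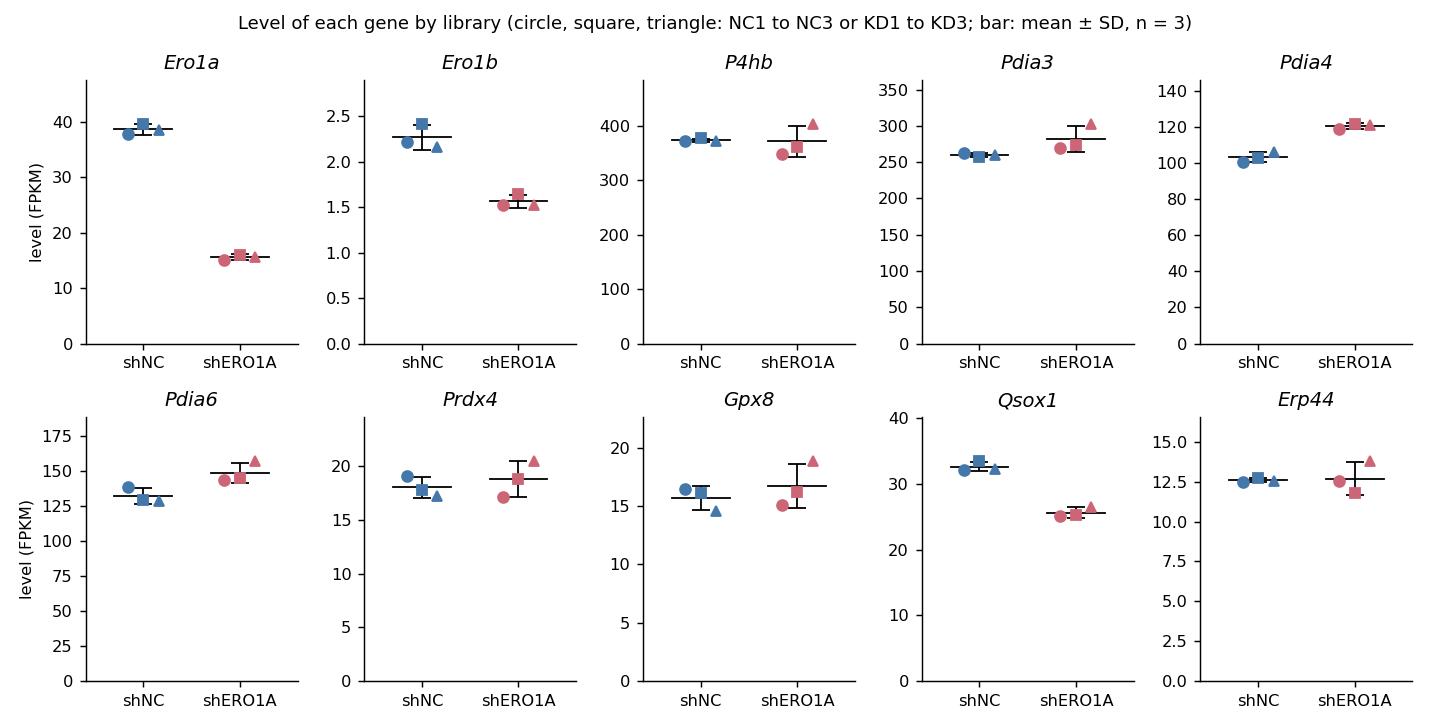
Level in FPKM of each of the 10 genes in each library, shNC in blue and shERO1A in red, with the group mean ± SD (n = 3). The groups are apart in Ero1a, Ero1b, Pdia3, Pdia4, Pdia6 and Qsox1 and overlap in P4hb, Prdx4, Gpx8 and Erp44; KD3 is the highest point in 6 panels.

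Ero1a (Entrez 50527) is the main ERO1 oxidase of most tissues. Its level was 37.8, 39.6 and 38.4 FPKM in NC1, NC2 and NC3 and 15.0, 15.98 and 15.7 FPKM in KD1, KD2 and KD3. Every knockdown library lay below every control library, and KD3 lay within the range of the other knockdown libraries. The mean was 38.6 ± 0.937 FPKM in shNC and 15.6 ± 0.505 FPKM in shERO1A (SD, n = 3), so that 40.3% remained (log2 change -1.26, SE 0.05, limma adjusted p = 6.21e-06). It was the 20th lowest log2 change of the 10296 tested genes. Between 2543 and 2748 reads still mapped to Ero1a in each knockdown library.

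Ero1b (Entrez 67475), the paralog known for its role in insulin-producing cells, was the least abundant of the 10 genes. It stood at 2.22, 2.42 and 2.16 FPKM in the control libraries and at 1.52, 1.65 and 1.52 FPKM in the knockdown libraries, from 452 to 503 and from 318 to 344 reads per library. The groups did not overlap. Group means were 2.27 ± 0.135 and 1.56 ± 0.0714 FPKM (SD, n = 3), which leaves 69.0% of control. On the log2(FPKM + 1) scale, which understates changes of a gene this low, the change was -0.35 (SE 0.07, limma adjusted p = 0.0118); with a pseudocount of 0.1 it was -0.51. The call was lost without NC2 (adjusted p = 0.0601). The authors' deposited table gives a q-value of 0.000538. The transcript of the second oxidase was lower, not higher, in the libraries with less Ero1a.

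Taken as a pair, the summed ERO1 level was 40.9 ± 1.05 FPKM in shNC and 16.5, 17.6 and 17.2 FPKM in KD1, KD2 and KD3. Ero1a made up most of that sum in both groups. The share of Ero1b in it was 5.54 ± 0.213% in shNC and 9.14 ± 0.261% in shERO1A (SD, n = 3), with Ero1a at 17.1 and 9.95 times the level of Ero1b. Sums and ratios over chosen genes are given here as descriptions, with no test.

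Qsox1 (Entrez 104009) encodes a sulfhydryl oxidase that forms disulfide bonds without ERO1 and acts mainly in the Golgi and outside the cell. Its level was 32.2, 33.5 and 32.3 FPKM in NC1, NC2 and NC3 and 25.0, 25.2 and 26.5 FPKM in KD1, KD2 and KD3. The groups were apart by more than their spread, with means of 32.6 ± 0.723 and 25.6 ± 0.826 FPKM (SD, n = 3). The log2 change was -0.34 (SE 0.04, limma adjusted p = 0.0019), and the call held under each of 12 alternatives, whose highest adjusted p was 0.0165. In shNC, Qsox1 stood below Ero1a, at 0.845 ± 0.00601 of its level, and in shERO1A above it, at 1.65 ± 0.0606 times its level.

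The 4 isomerases were the most abundant genes of the group in every library, and 1 of them, Pdia4, was called. P4hb (Entrez 18453), which encodes the prototype isomerase PDI and serves also as a subunit of collagen prolyl hydroxylase, stood at 371, 377 and 372 FPKM in the control libraries and at 348, 362 and 404 FPKM in the knockdown libraries. The shNC values lay inside the range of the shERO1A values, where KD1 and KD2 were below and KD3 above every control library. Its log2 change was -0.01 with a 95% interval from -0.16 to 0.14 (limma adjusted p = 0.923). Without KD3 the log2 change was -0.07 (adjusted p = 0.0735).

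Pdia3 (Entrez 14827) encodes ERp57, the isomerase that works on glycoproteins with calnexin and calreticulin. It stood at 262, 258 and 260 FPKM in NC1, NC2 and NC3 and at 270, 273 and 303 FPKM in KD1, KD2 and KD3. The groups did not overlap, but KD3 was well above the other knockdown libraries. The log2 change was 0.11 with a 95% interval from -0.02 to 0.25 (limma adjusted p = 0.21), and without KD3 it was 0.06 (adjusted p = 0.0931).

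Pdia4 (Entrez 12304) encodes ERp72, an isomerase with additional thioredoxin-like domains and a known target of the unfolded protein response. Its level was 101, 103 and 106 FPKM in shNC and 119, 122 and 121 FPKM in shERO1A. The knockdown libraries lay close together, with KD3 between KD1 and KD2, and all above the controls. Group means were 103 ± 2.76 and 121 ± 1.63 FPKM (SD, n = 3), so the level rose to 1.17 times control (log2 change 0.22, SE 0.04, limma adjusted p = 0.00947). Leaving out NC1 or NC2 ended the call (adjusted p = 0.0614 and 0.0579). The authors' deposited table gives a q-value of 0.000471.

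Pdia6 (Entrez 71853), which encodes the isomerase P5, stood at 139, 129 and 129 FPKM in the control libraries and at 144, 145 and 157 FPKM in the knockdown libraries. The groups did not overlap, with NC1 close below KD1. The log2 change of 0.17 (95% interval 0.04 to 0.29) did not pass after adjustment over all genes (limma adjusted p = 0.0753). It passed without KD3 (log2 change 0.13, adjusted p = 0.036) and with quantile normalization (adjusted p = 0.0442), and the other alternatives reached up to 0.252. Groups that do not overlap were found in 40% of all tested genes and in 6 of the 10 genes here.

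**Figure D2:**
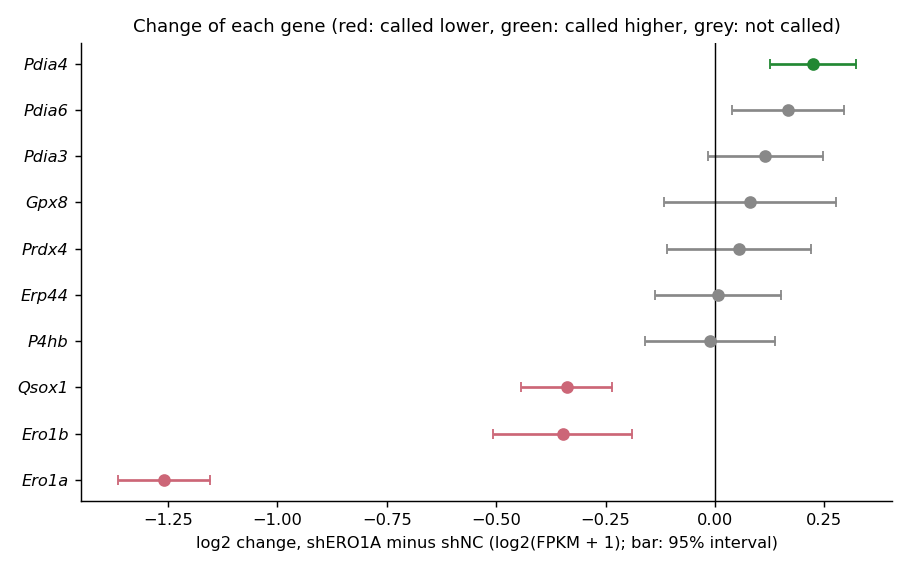
Log2 change on the log2(FPKM + 1) scale, shERO1A minus shNC, of each gene with its 95% interval from limma. Ero1a lies far from the rest at -1.26, Ero1b and Qsox1 lie at -0.35 and -0.34, Pdia4 at 0.22, and the intervals of P4hb, Erp44, Prdx4, Gpx8 and Pdia3 cover 0.

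The ratio of isomerase to ERO1 transcripts was higher in every knockdown library. Summed over P4hb, Pdia3, Pdia4 and Pdia6, the isomerase level was 873, 867 and 866 FPKM in shNC and 880, 902 and 985 FPKM in shERO1A. Per unit of summed ERO1 transcript there were 21.8, 20.6 and 21.4 units of isomerase transcript in shNC and 53.3, 51.2 and 57.2 in shERO1A, a ratio of the means of 2.53. Most of that ratio comes from its denominator, since the ERO1 sum was at 41.9% and the isomerase sum at 106% of control. Within the isomerase sum, P4hb made up 43.0 ± 0.484% in shNC and 40.2 ± 0.721% in shERO1A, and Pdia4 11.9 ± 0.365% and 13.1 ± 0.685% (SD, n = 3). A ratio within a library does not depend on how libraries are scaled to each other.

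**Figure D3:**
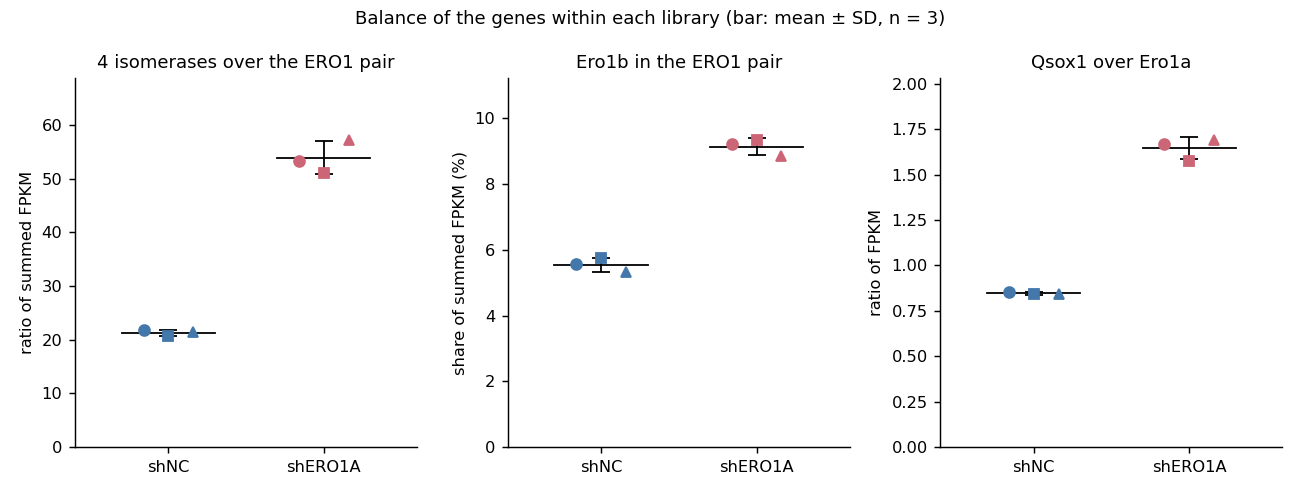
Ratios within each library, shNC in blue and shERO1A in red with the group mean ± SD (n = 3): summed FPKM of P4hb, Pdia3, Pdia4 and Pdia6 over that of Ero1a and Ero1b, the share of Ero1b in the ERO1 sum in percent, and Qsox1 over Ero1a. All 3 quantities are higher in every shERO1A library, from 51.2 to 57.2 against 20.6 to 21.8 for the first. Ero1a, the target of the hairpin, is in each denominator, and Ero1b and Qsox1 themselves were lower in shERO1A.

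The ER peroxidases did not pass the test. Prdx4 (Entrez 53381), a peroxiredoxin of the ER that uses peroxide to oxidize isomerases, stood at 19.1, 17.8 and 17.2 FPKM in the control libraries and at 17.2, 18.8 and 20.5 FPKM in the knockdown libraries. Gpx8 (Entrez 69590), a membrane-bound peroxidase of the ER known to bind ERO1A, stood at 16.5, 16.1 and 14.6 FPKM in the control libraries and at 15.1, 16.2 and 18.9 FPKM in the knockdown libraries. In both genes the groups overlapped and KD3 was the highest library, and without it both log2 changes were just below 0 (-0.0046 and -0.0045). Their log2 changes were 0.06 for Prdx4 (95% interval -0.11 to 0.22, limma adjusted p = 0.627) and 0.08 for Gpx8 (95% interval -0.12 to 0.28, adjusted p = 0.55). Their summed level was 0.827 ± 0.0559 of the summed ERO1 level in shNC and 2.08 ± 0.183 times that level in shERO1A. Most of this difference comes from the denominator, with the ERO1 sum at 41.9% of control, Prdx4 at 104% and Gpx8 at 106%.

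Erp44 (Entrez 76299) encodes the thioredoxin-family protein that holds ERO1 oxidases, which lack the usual ER retention signal, and other clients in the early secretory pathway. It stood at 12.5, 12.7 and 12.6 FPKM in the control libraries and at 12.5, 11.8 and 13.8 FPKM in the knockdown libraries. The knockdown libraries spread around the controls, with KD2 the lowest and KD3 the highest of the 6. The log2 change was 0.01 with a 95% interval from -0.14 to 0.15 (limma adjusted p = 0.946), and without KD3 it was -0.05.

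Ranked by mean FPKM in shNC, the order was P4hb, Pdia3, Pdia6, Pdia4, Ero1a, Qsox1, Prdx4, Gpx8, Erp44 and Ero1b, and no neighbours in it overlapped between libraries. Pdia4 had 2.68 times the level of Ero1a, the next in order, and Erp44 had 5.56 times that of Ero1b. In shERO1A, Ero1a moved from rank 5 to rank 8, behind Qsox1, Prdx4 and Gpx8, and the other genes kept their order. There Ero1a and Gpx8, and Gpx8 and Prdx4, overlapped between libraries and could not be ranked beyond their spread.

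**Figure D4:**
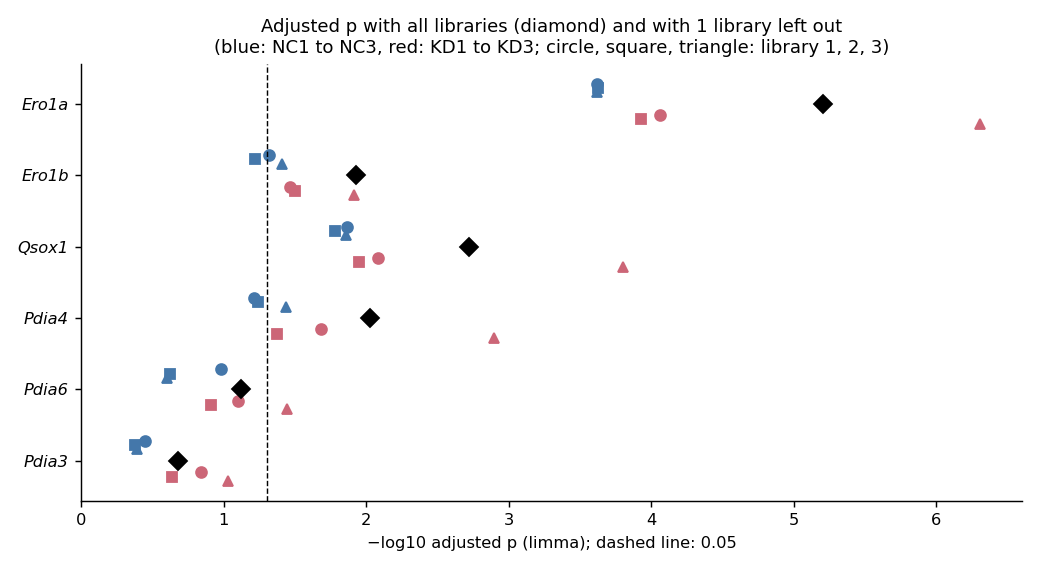
Adjusted p from limma as −log10 for 6 genes, with all libraries and with each library left out in turn, against the threshold of 0.05. Ero1a and Qsox1 stay past the threshold throughout, Ero1b falls short without NC2, Pdia4 falls short without NC1 or NC2, Pdia6 passes without KD3 and Pdia3 does not pass.

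Outside these 10 genes, the other disulfide isomerases gave 1 call, a number that moved when single libraries were left out. Of 17 listed genes, 11 were tested, 1 rose and none fell, which is 9.09% beside 17.7% of all tested genes; without NC1, NC2, NC3 or KD2 none was called, without KD1 3 rose and without KD3 2 rose. The gene that rose was Tmx4, a membrane-bound member of the family, to 13.0 ± 0.508 FPKM, 118% of control (SD, n = 3, log2 change 0.22, limma adjusted p = 0.0277). Its adjusted p reached 0.118 without NC3, and the authors' deposited table gives a q-value of 0.0152. In 9 of the 11 tested genes the log2 change was above 0, with a median of 0.10, and in 9 of them KD3 was the highest library.

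Other sources of disulfide bonds and users of peroxide gave no call. Of 10 listed genes, 9 were tested: Qsox2, Vkorc1, Vkorc1l1, Selenof and the peroxiredoxin genes Prdx1, Prdx2, Prdx3, Prdx5 and Prdx6. None was called (limma), with 3 at an unadjusted p under 0.05 and 2 called in the authors' deposited table. Prdx2 and Prdx5 had the largest log2 changes of the list, 0.32 and 0.29 (limma adjusted p = 0.0618 and 0.065). Each was called in 4 of 12 alternatives. The Golgi oxidase gene Qsox2 stood at 6.07 ± 0.66 and 6.32 ± 0.494 FPKM (SD, n = 3, adjusted p = 0.71), and Vkorc1, whose product passes electrons from isomerases to vitamin K, at 12.7 ± 0.784 and 14.1 ± 2.95 FPKM (adjusted p = 0.527). Gpx7 was not analysed here. KD3 was the highest library in all 9 tested genes. Without KD3, 2 of the genes were called higher and 3 lower, and without KD1 2 were called higher.

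Among proteins that work in complexes with the isomerases, P4ha1 and P4ha2, whose products pair with that of P4hb, fell, and P4hb itself was not called. Of 18 listed genes, 16 were tested, 1 rose and 3 fell, together 25% beside 17.7% of all tested genes, with a median log2 change of 0.02. Without KD3 the rises numbered 3, and without NC1 or NC3 1 fall was left. P4ha2, a catalytic subunit of collagen prolyl 4-hydroxylase, stood at 19.2, 19.0 and 17.0 FPKM in the control libraries and at 14.4, 13.5 and 11.7 FPKM in the knockdown libraries (log2 change -0.45, limma adjusted p = 0.00808). P4ha1, another catalytic subunit, fell from 30.9 ± 0.592 to 26.1 ± 1.02 FPKM (SD, n = 3, adjusted p = 0.0109), a call lost without NC1 or NC3 (adjusted p = 0.0596 and 0.0586). The groups did not overlap in either gene. Lman1, a cargo receptor that carries glycoproteins from the ER and is known to work with ERp44, rose from 30.9 ± 1.44 to 37.4 ± 1.04 FPKM (log2 change 0.27, adjusted p = 0.00908). Uggt1, the folding sensor that returns glycoproteins to calnexin, stood at 0.866 of control (adjusted p = 0.0418), a call lost in 6 of 12 alternatives, with an adjusted p of up to 0.149. Calnexin, BiP and GRP94 (Canx, Hspa5 and Hsp90b1) did not pass, with log2 changes of -0.06, 0.06 and -0.03. Calreticulin (Calr) did not pass either, with a log2 change of 0.18 (limma adjusted p = 0.0534). Its groups did not overlap, and it was called in 3 of 12 alternatives.

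Genes known to be induced under the same conditions as Ero1a were called often, in both directions. Of 17 listed genes of the low-oxygen and stress responses, 15 were tested, 5 rose and 6 fell (P4ha1 among them), which is 73.3% beside 17.7% of all tested genes; the genes were listed with earlier results of these data known. Leaving out 1 library left 1 to 5 rises and 5 to 8 falls, with 1 rise left without NC1, 2 without NC3 and 3 without NC2 or KD2. Egln3, an oxygen-sensing prolyl hydroxylase, had the largest change of the list, from 46.2 ± 0.686 to 28.0 ± 0.903 FPKM (SD, n = 3, log2 change -0.70, limma adjusted p = 5.85e-05). Bnip3, a mitophagy receptor, was at 0.69 of control, the metabolic kinase gene Pdk1 at 0.706 and Herpud1, of ER-associated degradation, at 0.705. Ddit3, which encodes CHOP, a factor known to activate Ero1a transcription, rose from 7.40 ± 0.546 to 9.51 ± 0.18 FPKM (log2 change 0.33, adjusted p = 0.00956). Vegfa, Ndrg1, Atf3 and Dnajb9 were the other rises, of which Atf3 was called in 6 and Ndrg1 in 7 of 12 alternatives. The remaining fall was Slc2a1, from 95.3 ± 1.55 to 78.7 ± 1.03 FPKM (SD, n = 3, log2 change -0.27, limma adjusted p = 0.00296). It was called in 12 of 12 alternatives.

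**Figure D5:**
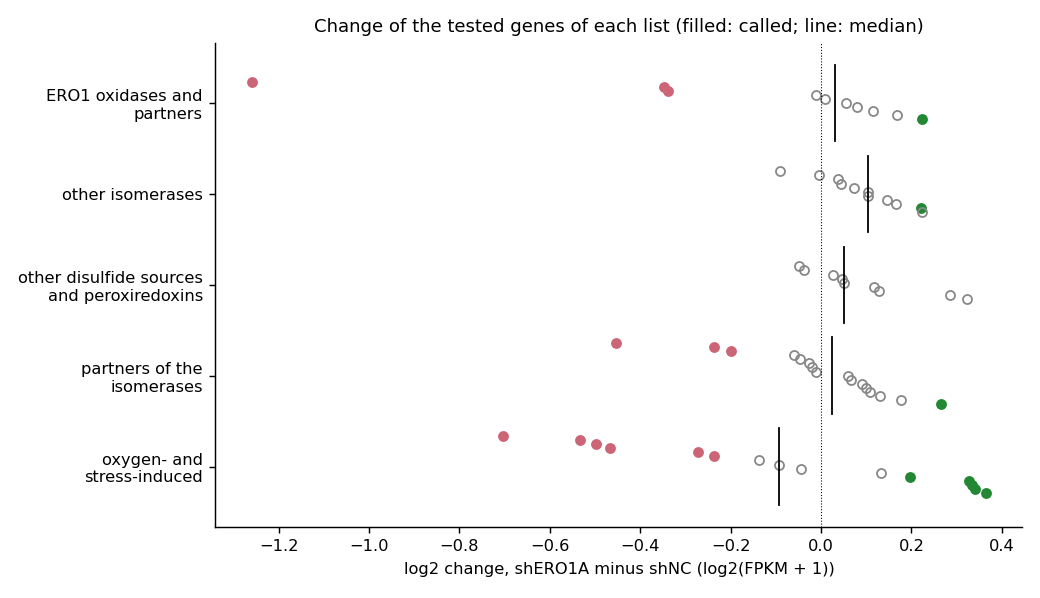
Log2 change on the log2(FPKM + 1) scale, shERO1A minus shNC, of each tested gene in the group and in 4 lists of related genes, with called genes filled and the median of each list as a line. Of 11 other isomerases 1 is called, and of 9 other disulfide sources and peroxiredoxins none, beside 17.7% of all tested genes. In the oxygen- and stress-induced list the called genes lie on both sides of 0, between -0.70 and 0.36.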

How the data were processed

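RNA of 3 shNC and 3 shERO1A libraries was sequenced. The submitters' processing notes list HISAT2 2.1.0, HTSeq 0.11.2 and the build mm39; the annotation and strand setting are not stated. The deposited table lists 16217 genes, and its 6 expression columns carry no unit and were taken as FPKM made by the authors. With the deposited base means, a signal of counts over size factors, all 97302 values gave whole reads to within 0.01 (100%). Any unit scaled to gene length and to the library would give this, so it cannot single out FPKM. Per the file headers, the same table has fold changes by the authors (a ratio), log2 fold changes, p-values and q-values. Columns KD1 to KD3 name a group but no sample title, so replicate numbers were not paired.

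The 10296 genes that averaged 1 FPKM or more were kept, log2(FPKM + 1) was fitted with limma 3.58.1 (R 4.3.3, intensity trend, no covariate), with Benjamini-Hochberg adjustment. The design named this test for FPKM. Libraries were simulated with the spread of the shNC libraries alone. On them limma called 82% of 50 genes changed 1.25-fold and 98% of 50 changed 1.5-fold among 10302 genes. Of 10102 unchanged genes, 13 were called. The shERO1A libraries can spread more, as in P4hb (SD 29.0 FPKM against 3.11 FPKM in shNC), so these shares need not hold for this comparison. Alternatives were a pseudocount of 0.1, no filter, median of ratios scaling, quantile normalization, voom on the recovered reads, the authors' own test, and each library left out. Overlap with other genes on either strand was looked up in GENCODE M21. Catsper2, opposite Pdia3, had a mean of 0.316 FPKM. Atp6v1c2, Cdc20b and Gm37539, opposite Pdia6, Gpx8 and Qsox1, were not analysed here. The small RNA genes Gm25483, Mir704 and Mir1958 overlap Ero1b, Pdia4 and Erp44 on the same strand and were not analysed here either.

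Members and lists were chosen with earlier results of these data known. Named are the 10 members, up to 4 called genes of each list by size of change, Gpx7, Qsox2 and Vkorc1, and the 5 genes most like Ero1a. Canx, Calr, Hspa5, Hsp90b1, Ddit3, Vegfa, Ndrg1, Atf3, Dnajb9 and Slc2a1 and the marker genes were named after their values were seen. So were the genes with an ER stress response element in the closing section. Also named then were the other tested genes on the list of Qsox2 and Vkorc1. Promoter windows are from RefSeq.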

Additional observations from a re-analysis of the deposited data

How the results depend on the processing

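No paired analysis was possible because the knockdown columns cannot be tied to the numbered titles of their group. Over 12 alternatives for each of the 10 genes, 109 of 120 values kept their direction and side of the threshold, 3 lost and 2 gained a call, and 6 changed sign, each of a gene not called with an adjusted p over 0.4 there. With 1 library left out, the log2 change of P4hb ran from -0.073 to 0.033 (above 0 without KD1, and at 0.0058 without KD2), of Prdx4 from -0.0046 to 0.12, of Gpx8 from -0.0045 to 0.15 and of Erp44 from -0.049 to 0.057, the last 3 below 0 without KD3; Erp44 was also at -0.0017 with quantile normalization. Qsox2 ran from -0.011 (without NC1) to 0.12 and Vkorc1 from -0.015 (without KD3) to 0.27. Their cause was not tested. Genes called higher among the 10 numbered 2 with quantile normalization, as among other isomerases and among other disulfide sources and peroxiredoxins. That last list also had 2 calls higher in the authors' deposited table. Partners of the isomerases called higher numbered 2 with voom and in the authors' deposited table. With 1 library left out, the 10 genes had 0 to 2 calls higher and 2 to 3 lower, and other isomerases 0 to 3 higher. Other disulfide sources and peroxiredoxins had 0 to 2 higher and 0 to 3 lower. Partners had 1 to 3 higher and 1 to 3 lower, and oxygen- and stress-induced genes 1 to 5 higher. All genes gave 482 to 1521 higher and 460 to 1332 lower, the most without KD3 and the fewest without NC2 and NC3. Ero1b had the fewest reads of the 10 genes, at least 318 per library.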

Other observations

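Among 7381 named genes averaging 5 FPKM or more, the 5 whose log2(FPKM + 1) followed Ero1a most closely over the 6 libraries were Ephx1, Krt19, Srp72, Pmvk and Man2a1, with Pearson r from 0.997 to 0.999. The libraries form 2 groups, so r follows the group difference, and 59 of these genes had r above 0.99. Krt19, a keratin of bile duct cells, stood at 45.2% of control, and Man2a1, a Golgi enzyme of N-glycan trimming, at 45.3%. Srp72, a subunit of the signal recognition particle, stood at 89.5% of control, so a high r says nothing of the size of a change. Within the group described above, r with Ero1a was 0.987 for Qsox1, 0.981 for Ero1b and -0.97 for Pdia4, and 0.11 for P4hb.

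The ER stress response element seen before Ero1b and Pdia6 was found before 35 genes, of which 16 were tested. The tested ones include the chaperone genes Hspa5, Hsp90b1, Calr and Canx and the ER genes Creld2, Dnajc3 and Syvn1. Of the 16, 1 was called higher and 2 lower, 18.8% beside 17.7% of all tested genes, with a median log2 change of -0.04. Ero1b, at -0.35, was one of the lower calls (limma adjusted p = 0.0118), and Calr, at 0.18, and Pdia6 did not pass (adjusted p = 0.0534 and 0.0753).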
